A study of Rattus norvegicus with 6 samples.

Results

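Satellite glial cells were followed here through 7 marker genes, Apoe, Fabp7, Kcnj10, Ednrb, Ptprz1, Gja1 and Gfap, chosen by name from the 22536 genes of an RNA sequencing table of rats with painful diabetic neuropathy (PDN), the pain that can follow diabetes. All 7 were found, each as a single row, and all 7 passed the filter on low values. The groups were 3 male PDN rats and 3 male control rats. The labels call the tissue of every library sensory neuron, and the series title names the dorsal root ganglion, where the cell bodies of sensory neurons sit next to the spinal cord. The labels name no strain, no age, no way in which diabetes was brought about and no agent. The design text counts rats, so a library is taken as an animal, and nothing in the sources says which animals shared a cage or a day.

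Satellite glial cells wrap the cell bodies of sensory neurons in thin sheaths, are joined to each other by gap junctions, and take up the potassium and the transmitter that the neurons release. After nerve injury they are known to turn on the filament protein GFAP, to couple more strongly and, in several rodent models, to lose potassium conductance. Kcnj10 encodes the potassium channel Kir4.1, Gja1 the gap junction protein connexin 43, Fabp7 a carrier of fatty acids, Apoe the lipid carrier apolipoprotein E, Gfap the glial filament protein, Ptprz1 a receptor tyrosine phosphatase that binds pleiotrophin, and Ednrb the endothelin B receptor. None of these genes is made by satellite glia alone. Schwann cells, macrophages, fibroblasts or vessel cells are known to use some of them.

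Comparing the deposited tables implied 51855000 to 62785000 fragments per library, on the assumption that the constant linking them reflects library size. FPKM, fragments scaled to transcript length and library size, reached 1 for 13093 to 13286 genes in each. Markers of neurons were abundant in every library, with the 10 genes of that list summing to 8665 to 9830 FPKM in PDN and 8878 to 10178 FPKM in controls. Schwann cell RNA was abundant as well, with myelin genes summing to 3372 to 4043 FPKM in PDN and 3372 to 4158 FPKM in controls, so the libraries hold a ganglion's mixture of cells rather than neurons alone. The oligodendrocyte genes Mog, Mobp and Opalin stayed under 1 FPKM in all 6 libraries. Of the 5 genes listed for astrocytes of the brain and spinal cord, Aqp4 and Slc1a2 stayed under 1 FPKM too. Slc6a11 was at 2.27 to 3.09 FPKM in PDN and 2.42 to 3.31 FPKM in controls, Gjb6 at 0.811 to 1.75 FPKM in PDN and 1.58 to 2.61 FPKM in controls, and Aldh1l1 at 0.836 to 0.946 FPKM in PDN and 1.01 to 1.42 FPKM in controls. Skeletal muscle RNA set PDN 3 (151.9 FPKM over the muscle list) and control 2 (474.8 FPKM) apart from PDN 1 (29.2 FPKM) and from the other libraries (1.78 to 2.02 FPKM).

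The 7 markers covered a wide range of levels, and these per-length levels can be compared between genes. Apoe was the most abundant by far, at 1505 ± 88.2 FPKM (SD over all 6 libraries), and ranked between 7 and 12 among the 22536 genes of a library. Fabp7 (32.9 ± 11.7 FPKM), Kcnj10 (32.2 ± 4.50 FPKM) and Ednrb (28.3 ± 5.21 FPKM) followed. These neighbours were not in a fixed order, since Fabp7 lay above Kcnj10 in 2 of 6 libraries and Kcnj10 above Ednrb in 5 of 6. Below them, Ednrb exceeded Ptprz1 (17.9 ± 3.20 FPKM), Ptprz1 exceeded Gja1 (12.4 ± 1.63 FPKM), and Gja1 exceeded Gfap (5.35 ± 1.60 FPKM) in 6 of 6 libraries.

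As the file gives their loci, without a named build, Apoe lies on chromosome 1 (80612895 to 80617057), Ptprz1 on chromosome 4 (49941304 to 50140762), Gfap on chromosome 10 (90990762 to 90999506), Kcnj10 on chromosome 13 (90723092 to 90752581) and Ednrb on chromosome 15 (88006977 to 88036354). Gja1 (37876650 to 37889089) and Fabp7 (40769586 to 40773349) share chromosome 20, with 2.88 megabases between them. RefSeq promoter windows of build GRCr8 were matched by symbol for 6 of the 7 genes, not for Ptprz1. Shown here are the 250 bases before the start for Kcnj10 and Gfap, whose standardised profiles over the libraries were the closest pair, and for Fabp7, whose control SD was the largest of the 7 relative to its mean. Capitals mark matches to the motifs searched, on either strand. The windows are chr13:87334260-87334509 (plus strand), chr10:88361662-88361911 (minus strand) and chr20:37669356-37669605 (plus strand).
Kcnj10: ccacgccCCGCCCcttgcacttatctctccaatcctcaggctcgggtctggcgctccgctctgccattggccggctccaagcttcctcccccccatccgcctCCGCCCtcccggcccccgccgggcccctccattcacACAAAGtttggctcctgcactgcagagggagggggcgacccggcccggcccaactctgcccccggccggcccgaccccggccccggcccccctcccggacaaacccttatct
Gfap: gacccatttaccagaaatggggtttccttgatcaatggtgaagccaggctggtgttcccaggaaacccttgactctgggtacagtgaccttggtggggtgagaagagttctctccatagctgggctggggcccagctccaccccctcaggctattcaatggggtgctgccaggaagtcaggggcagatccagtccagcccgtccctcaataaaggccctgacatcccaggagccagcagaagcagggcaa
Fabp7: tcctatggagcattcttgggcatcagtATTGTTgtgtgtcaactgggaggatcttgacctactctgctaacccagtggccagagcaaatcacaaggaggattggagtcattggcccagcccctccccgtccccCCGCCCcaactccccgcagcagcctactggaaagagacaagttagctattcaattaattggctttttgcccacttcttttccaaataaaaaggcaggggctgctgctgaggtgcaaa
The Kcnj10 window holds 72.4% G and C, the Gfap window 57.6% and the Fabp7 window 51.6%, beside a median of 51.2% over 33469 windows. The GC box GGGCGG was found in the windows of Kcnj10, Fabp7 and Apoe, and in 30.5% of all windows. The SOX-type motif AACAAT was found for Fabp7 (10.3% of all windows) and ACAAAG for Kcnj10 (16.3%). Matches to TATAAA (12.9%), the STAT-type motif TTCNNNGAA (7.67%), the CRE motif TGACGTCA (1.59%) and the palindromic NFI motif (0.0359%) were found in none of the 6 genes' windows, where N is any base. The motifs do not overlap each other in the 3 sequences shown. The Gfap window held no match to any motif searched.

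The comparison asked which markers differ between PDN and control ganglia. Estimates were lower in PDN for 6 of the 7 (85.7%), against 56.6% of the 13282 genes tested, and none passed the threshold of an adjusted p of 0.05. In limma, 0 of all tested genes passed it (0%), and 627 (4.72%) had an unadjusted p under 0.05, so the absence of a call is shared with the whole table. The median log2 fold change of the 7 was -0.29, beside -0.02 over all tested genes. In bulk tissue, fewer satellite glia, less of these RNAs per cell and a different share of other cells cannot be told apart.

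**Figure D1:**
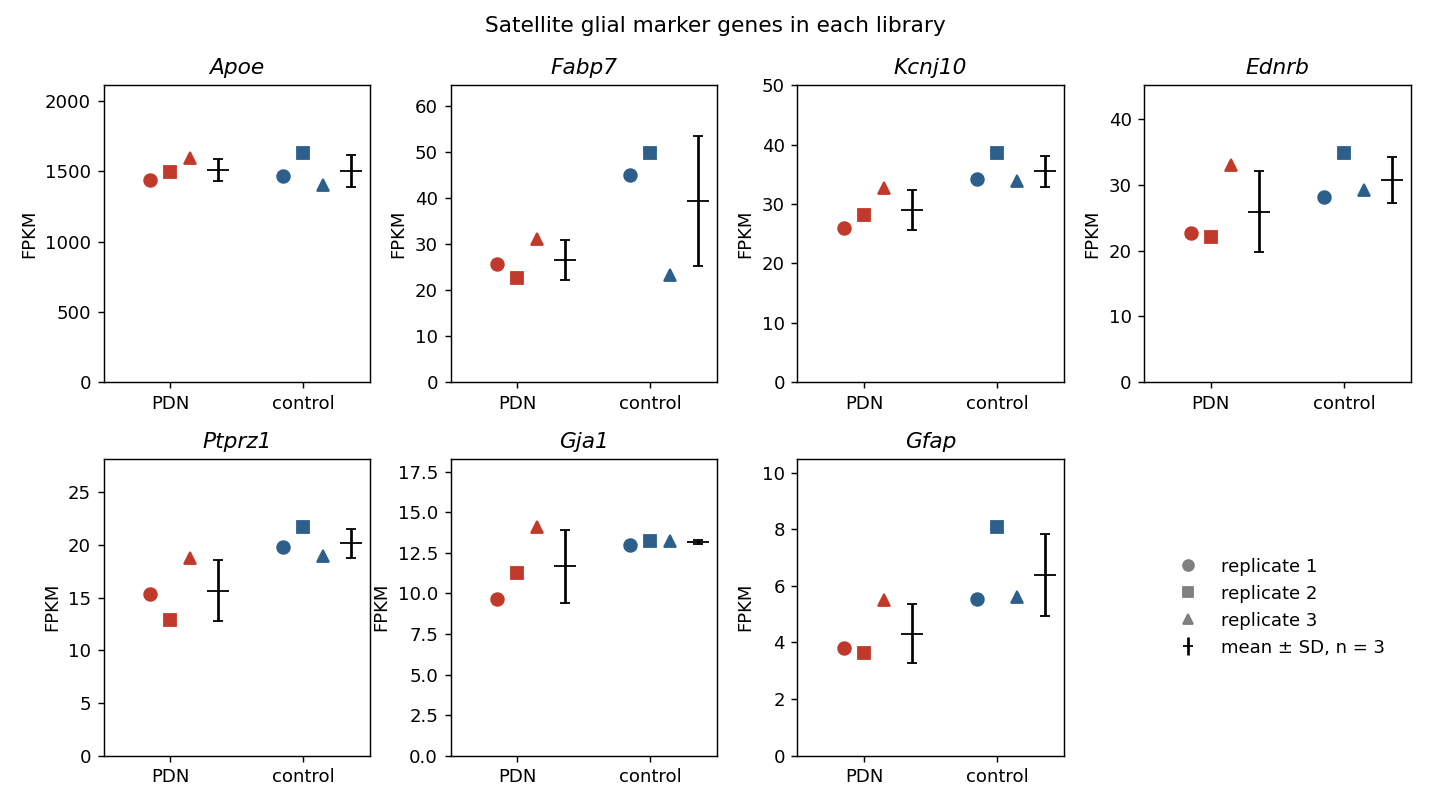
FPKM (linear axis from 0) of the 7 satellite glial markers in each library, PDN in red on the left and control in blue on the right, with replicates as circle, square and triangle and the mean ± SD of 3 beside them. The PDN points lie below the control points for Kcnj10, Ptprz1 and Gfap, while Apoe overlaps fully and Fabp7 is low in control 3.

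Kcnj10, the potassium channel gene, was at 26.0, 28.2 and 32.7 FPKM in PDN 1, 2 and 3, against 34.2, 38.5 and 33.8 FPKM in controls 1, 2 and 3. All 3 PDN libraries lay below all 3 controls, with 1.10 FPKM between the nearest values. The means were 29.0 ± 3.40 FPKM in PDN and 35.5 ± 2.61 FPKM in controls (SD, n = 3 each), so PDN stood at 81.6% of the control mean. The log2 fold change was -0.29 ± 0.10 (SE), 95% interval -0.52 to -0.06, with a limma adjusted p of 0.999 (unadjusted p = 0.0200).

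Gfap, the filament gene known to be switched on in satellite glia after nerve injury, was at 3.79, 3.64 and 5.51 FPKM in PDN 1, 2 and 3, against 5.52, 8.07 and 5.60 FPKM in controls 1, 2 and 3. The PDN libraries were the lower ones, but PDN 3 and control 1 were only 0.00588 FPKM apart, and the groups overlapped under median-of-ratios and upper-quartile scaling. Means were 4.31 ± 1.04 FPKM in PDN and 6.39 ± 1.45 FPKM in controls (SD, n = 3 each). The log2 fold change was -0.48 ± 0.18 (SE), interval -0.89 to -0.06, with a limma adjusted p of 0.999 (unadjusted p = 0.0298). A higher Gfap level in PDN was thus not seen in these libraries, and the interval of the difference lies below 0 before adjustment over the genes tested.

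Ptprz1, the phosphatase gene, was at 15.4, 12.9 and 18.7 FPKM in PDN 1, 2 and 3, against 19.8, 21.7 and 19.0 FPKM in controls 1, 2 and 3. The groups did not overlap, and 0.265 FPKM separated PDN 3 from control 3. PDN averaged 15.7 ± 2.92 FPKM and controls 20.2 ± 1.37 FPKM (SD, n = 3 each). The log2 fold change was -0.36 ± 0.13 (SE), interval -0.66 to -0.06, with a limma adjusted p of 0.999 (unadjusted p = 0.0255), and it was -0.23 without PDN 2. Kcnj10, Ptprz1 and Gfap were the 3 of 7 markers (42.9%) that were lower at an unadjusted p under 0.05, where 2.89% of all genes were, and the 3 whose groups did not overlap, where 6.24% of all genes had PDN below control. The count at an unadjusted p under 0.05 changed with the library left out. It was 0 of 7 without PDN 1, without PDN 2 or without control 2, 2 without control 1, 4 without control 3 and 5 without PDN 3. Fewer libraries can by themselves raise p, so these counts do not show what a single library carried. With 1 library left out, estimates ran from -0.38 to -0.22 for Kcnj10, -0.49 to -0.23 for Ptprz1 and -0.63 to -0.32 for Gfap. With median-of-ratios scaling, Kcnj10 and Ptprz1 remained separate, beside 4.95% of all genes. That scaling also evened the genes at an unadjusted p under 0.05 to 2.36% lower and 2.31% higher in PDN, against 2.89% and 1.83% as deposited, and upper-quartile scaling gave 2.39% and 2.23%. The 3 genes were named in earlier results of these data and varied together over the libraries, so they are not 3 separate observations.

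The other 4 markers overlapped between the groups. Fabp7, the fatty acid carrier, was at 25.7, 22.6 and 31.2 FPKM in PDN 1, 2 and 3, against 45.1, 49.7 and 23.2 FPKM in controls 1, 2 and 3. Control 3 lay inside the PDN range, while the other controls were above every PDN library. Means were 26.5 ± 4.35 FPKM in PDN and 39.3 ± 14.1 FPKM in controls (SD, n = 3 each). On the log2 scale the difference was -0.49 ± 0.27 (SE), interval -1.13 to 0.14 (limma adjusted p = 0.999). The estimate moved to -0.83 without control 3 (adjusted p = 0.821) and to -0.29 without control 2.

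Ednrb, the endothelin receptor gene, was at 22.7, 22.1 and 33.0 FPKM in PDN 1, 2 and 3, against 28.2, 34.8 and 29.2 FPKM in controls 1, 2 and 3. PDN 3 stood among the controls, and the other PDN libraries stood below them. The log2 fold change was -0.26 ± 0.16 (SE), interval -0.63 to 0.12 (limma adjusted p = 0.999). It was -0.44 without PDN 3, -0.16 without PDN 2 and -0.17 without control 2.

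Gja1, the connexin 43 gene, was at 9.66, 11.3 and 14.1 FPKM in PDN 1, 2 and 3, against 13.0, 13.2 and 13.2 FPKM in controls 1, 2 and 3. The PDN libraries lay on either side of the controls, which were nearly equal, with an SD of 2.24 FPKM in PDN against 0.128 FPKM in controls (n = 3 each). The log2 fold change was -0.17 ± 0.12 (SE), interval -0.46 to 0.11 (limma adjusted p = 0.999). It was -0.31 without PDN 3 and -0.06 without PDN 1.

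Apoe was the marker that differed least. It was at 1441, 1493 and 1595 FPKM in PDN 1, 2 and 3, against 1470, 1628 and 1404 FPKM in controls 1, 2 and 3, and the lowest and the highest values were both controls. Means were 1510 ± 78.7 FPKM in PDN and 1500.4 ± 114.9 FPKM in controls (SD, n = 3 each). The estimate on the log2 scale was 0.01 ± 0.09 (SE), interval -0.20 to 0.22 (limma adjusted p = 1.00), and its sign turned when PDN 3, control 1 or control 3 was left out.

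**Figure D2:**
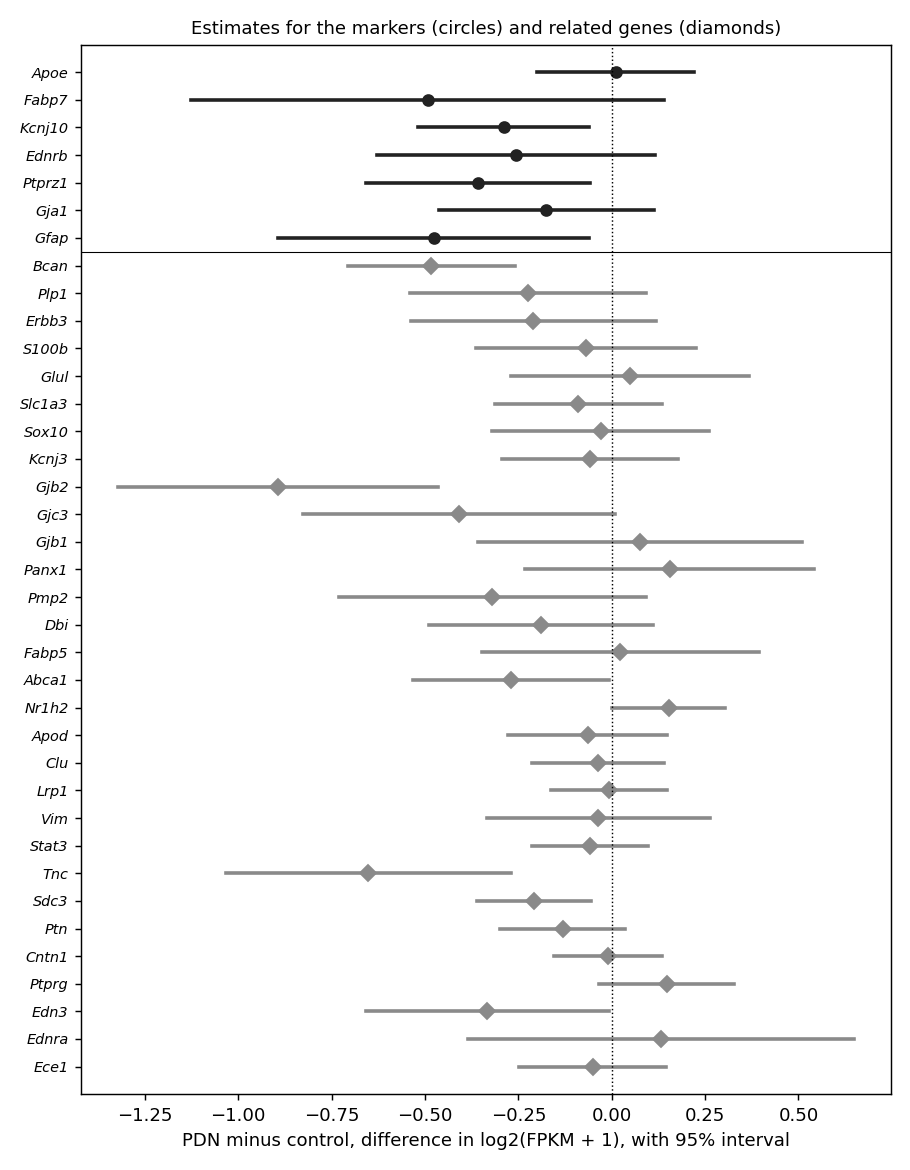
Difference between PDN and control in log2(FPKM + 1) (horizontal axis, points) with its 95% interval (lines, unadjusted for the number of genes) for the 7 markers as circles and related genes as diamonds. The intervals of Kcnj10, Ptprz1 and Gfap end at -0.06, that of Apoe is centred near 0, and Gjb2 has the lowest estimate shown.

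The markers also differed between animals of a group, and in a shared way. PDN 3 had the highest value within PDN for 7 of 7 markers, and control 2 the highest within controls for 6 of 7, Gja1 being the exception. PDN 1 and PDN 2 shared the lowest PDN values, for 3 and 4 markers. The sum of the markers without Apoe was 103, 101 and 135 FPKM in PDN 1, 2 and 3, against 146, 166 and 124 FPKM in controls 1, 2 and 3, so PDN 3 stood above control 3. PDN 3 and control 2 were the libraries with most skeletal muscle RNA and also had the highest myelin gene sums of their groups (4043 and 4158 FPKM). The part of muscle or Schwann cell RNA in the marker differences was not tested. With both libraries left out, the median of the 7 was -0.35, with 6 of 7 estimates lower in PDN.

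Likeness between profiles was measured as the root mean square difference between values standardised over the 6 libraries, where 0 means the same profile. Kcnj10 and Gfap were the closest pair of markers, at 0.256, followed by Gfap and Ednrb at 0.328 and Gfap and Ptprz1 at 0.345. The median over the 21 pairs was 0.648. Apoe was farthest from the mean marker profile, at 0.737, and the most distant pair was Apoe and Ptprz1, at 1.03. Among the other tested genes with no clone-type name, the closest to the mean marker profile were Pank4 (0.0704), Micall2 (0.107), Gbp5 (0.132), the assembled locus XLOC_096545 (0.146) and Hax1 (0.148). With 13282 genes and 6 libraries, such closeness is a description of these libraries.

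**Figure D3:**
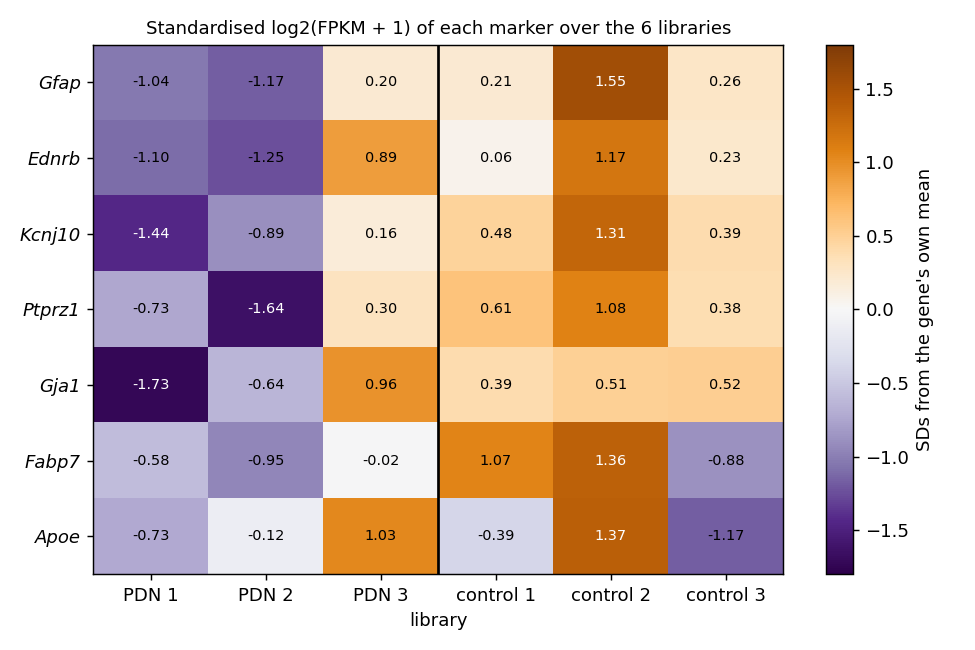
Standardised log2(FPKM + 1) of each marker (rows, ordered by closeness to the mean profile) in each library (columns, PDN left and control right), with colour and number giving SDs from the gene's own mean over 6 libraries. PDN 1 and PDN 2 are below the mean for all 7 markers, control 2 is above it for all 7, and Fabp7 and Apoe are low in control 3.

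To ask whether the markers kept their proportions, each was divided by Kcnj10 within its library. Apoe over Kcnj10 was 55.3, 53.0 and 48.8 in PDN 1, 2 and 3, against 42.9, 42.2 and 41.5 in controls 1, 2 and 3, and the groups did not overlap. The ratio averaged 52.4 ± 3.32 in PDN libraries and 42.2 ± 0.700 in control libraries (SD, n = 3 each). Its two-sided exact permutation p was 0.1, the smallest that 3 against 3 allows, and 0.6 adjusted over the 6 ratios. With that floor no ratio could pass the threshold used for genes, so the permutation test cannot decide whether proportions changed. Kcnj10 was already lower in every PDN library than in every control, while the Apoe means were nearly equal. The separation of the Apoe ratio is therefore not an observation separate from the Kcnj10 difference. Ptprz1 over Kcnj10 averaged 0.540 ± 0.0717 in PDN and 0.568 ± 0.0101 in controls, and Ednrb over Kcnj10 averaged 0.887 ± 0.114 in PDN and 0.863 ± 0.0390 in controls. Both differences were smaller than the spread within PDN. Gja1 over Kcnj10 averaged 0.400 ± 0.0297 in PDN and 0.371 ± 0.0253 in controls, Gfap over Kcnj10 averaged 0.148 ± 0.0198 in PDN and 0.179 ± 0.0267 in controls, and Fabp7 over Kcnj10 averaged 0.915 ± 0.0989 in PDN and 1.10 ± 0.356 in controls, all with overlapping groups.

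**Figure D4:**
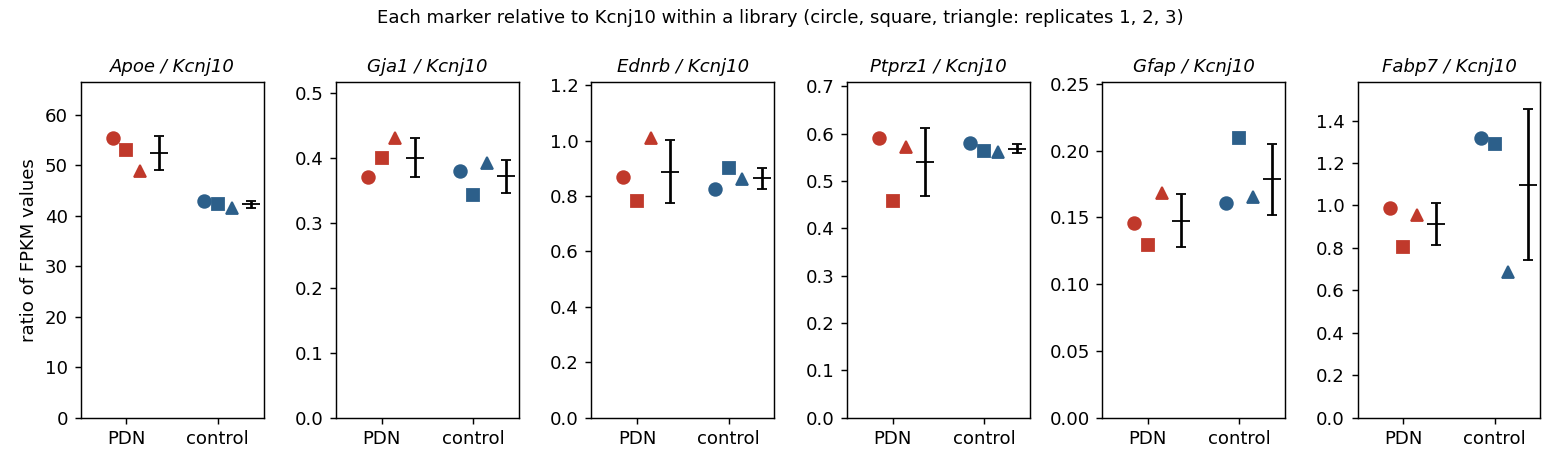
Ratio of each marker's FPKM to that of Kcnj10 in the same library (vertical axis, linear from 0), PDN left in red and control right in blue, with replicates by shape and the mean ± SD of 3. The Apoe ratio lies between 48.8 and 55.3 in PDN and between 41.5 and 42.9 in controls, and the other 5 ratios overlap.

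The markers were set beside 78 related genes, of which 77 were found and 63 tested. Of the 63, 45 had a lower estimate in PDN (71.4%, against 56.6% of all genes) and 18 a higher one, 0 passed the adjusted threshold (0% of all genes did), and the median log2 fold change was -0.06. At an unadjusted limma p under 0.05, 7 were lower (11.1%, against 2.89% of all genes) and 1 was higher, where 1.83% of all genes were. The related genes were chosen with earlier results of these data known. These shares therefore describe the list and do not test it. Under median-of-ratios scaling 40 of the 63 were lower, beside 49% of all genes, and under upper-quartile scaling also 40, beside 50.2%.

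Other genes known from satellite glia were largely alike between the groups, with a median of -0.08 over 14 tested, 12 of them with a lower estimate. Glul, the glutamine synthetase gene, was at 123, 114 and 84.2 FPKM in PDN 1, 2 and 3, against 106, 104 and 97.3 FPKM in controls 1, 2 and 3, the reverse of the markers in that PDN 3 was its lowest library. The glutamate transporter gene Slc1a3 averaged 6.61 ± 0.752 FPKM in PDN and 7.08 ± 0.384 FPKM in controls, the calcium-binding protein gene S100b 601 ± 25.6 FPKM in PDN and 636 ± 113 FPKM in controls, and the glial transcription factor gene Sox10 25.0 ± 3.06 FPKM in PDN and 25.5 ± 3.48 FPKM in controls (SD, n = 3 each). These differences were smaller than the larger of the group SDs. Bcan, which encodes the matrix proteoglycan brevican, stood apart in the list at 21.5, 19.6 and 20.0 FPKM in PDN 1, 2 and 3, against 26.0, 32.9 and 28.1 FPKM in controls 1, 2 and 3. The groups did not overlap, and the log2 fold change was -0.48 ± 0.10 (SE), with a limma adjusted p of 0.682.

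Relatives of the potassium channel gene were few at these levels. Of 8 inward rectifier genes 4 were tested, with a median of -0.03, and Kcnj16, whose product pairs with Kir4.1 in other tissues, ranged from 0.124 to 0.201 FPKM in PDN and from 0.0876 to 0.299 FPKM in controls. Kcnj3, a G protein-gated relative, averaged 13.9 ± 1.46 FPKM in PDN and 14.5 ± 1.40 FPKM in controls (SD, n = 3 each).

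Among connexins and pannexins beside Gja1, 4 of 9 tested genes had a lower estimate. Gjb2, the connexin 26 gene, was at 1.66, 2.76 and 1.74 FPKM in PDN 1, 2 and 3, against 4.02, 4.02 and 5.96 FPKM in controls 1, 2 and 3. The groups did not overlap, and the log2 fold change was -0.89 ± 0.18 (SE), with a limma adjusted p of 0.707. Connexin 26 is known from fibroblasts of the tissue sheaths, and all 6 tested genes of the fibroblast list had the same direction, with a median of -0.18. Col3a1 (42.4 ± 9.16 FPKM in PDN, 59.2 ± 1.35 FPKM in controls) and Lum (21.8 ± 3.48 FPKM in PDN, 29.3 ± 0.945 FPKM in controls) were the 2 of 6 whose groups did not overlap. Col1a2 (63.3 ± 16.8 FPKM in PDN, 65.1 ± 4.68 FPKM in controls) and Dcn (146 ± 27.0 FPKM in PDN, 155 ± 17.1 FPKM in controls) were among those that overlapped. The part of fibroblast RNA in the Gjb2 value was not tested. The glial connexin gene Gjc3 averaged 8.69 ± 2.28 FPKM in PDN and 11.7 ± 2.03 FPKM in controls, the Schwann cell connexin gene Gjb1 7.39 ± 1.18 FPKM in PDN and 7.07 ± 2.04 FPKM in controls, and the pannexin channel gene Panx1 4.96 ± 1.11 FPKM in PDN and 4.31 ± 0.704 FPKM in controls. The groups overlapped for these 3 genes.

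For lipid handling, Pmp2, the Schwann cell relative of Fabp7, averaged 97.2 ± 16.1 FPKM in PDN and 122 ± 26.8 FPKM in controls, Dbi, which binds acyl-CoA, 195 ± 27.7 FPKM in PDN and 221 ± 25.5 FPKM in controls, and Fabp5 62.5 ± 2.70 FPKM in PDN and 62.6 ± 14.3 FPKM in controls (SD, n = 3 each). None of these separated the groups. Of 10 tested lipoprotein genes beside Apoe, 6 had a lower estimate and the median was -0.02. Abca1, which loads lipid onto apolipoproteins, averaged 26.5 ± 4.20 FPKM in PDN and 31.9 ± 1.49 FPKM in controls, and Nr1h2, the gene of the sterol sensor LXR beta, averaged 26.7 ± 0.824 FPKM in PDN and 23.9 ± 1.13 FPKM in controls. Their log2 fold changes were -0.27 and 0.15, with limma adjusted p-values of 0.999. The lipid carrier genes Clu (238 ± 0.712 FPKM in PDN, 245 ± 21.1 FPKM in controls) and Apod (149.9 ± 6.21 FPKM in PDN, 157 ± 17.2 FPKM in controls) and the receptor gene Lrp1 (23.6 ± 0.720 FPKM in PDN, 23.8 ± 1.27 FPKM in controls) overlapped.

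Genes linked to reactive glia had a lower estimate in 9 of 9 tested, with a median of -0.14 and 0 at an unadjusted p under 0.05 in limma. Vim, a filament gene often raised together with Gfap, averaged 408 ± 63.5 FPKM in PDN and 417 ± 42.9 FPKM in controls, and Stat3, whose product drives Gfap in astrocytes, averaged 78.1 ± 2.45 FPKM in PDN and 81.4 ± 4.74 FPKM in controls (SD, n = 3 each). Neither differed by more than the larger of its group SDs.

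Around Ptprz1, the ligand gene Ptn averaged 194 ± 9.33 FPKM in PDN and 213 ± 12.2 FPKM in controls, and the partner gene Cntn1 199 ± 5.89 FPKM in PDN and 199.9 ± 6.99 FPKM in controls. Tnc, which encodes the matrix ligand tenascin C, was at 10.5, 10.1 and 16.0 FPKM in PDN 1, 2 and 3, against 20.4, 20.1 and 17.6 FPKM in controls 1, 2 and 3. The groups did not overlap, with a log2 fold change of -0.65 ± 0.16 (SE) and a limma adjusted p of 0.811. Sdc3, a heparan sulphate proteoglycan gene, averaged 60.3 ± 3.68 FPKM in PDN and 69.7 ± 1.18 FPKM in controls, also without overlap (limma adjusted p = 0.999). The paralogue gene Ptprg averaged 10.5 ± 0.668 FPKM in PDN and 9.36 ± 0.483 FPKM in controls, with every PDN library above every control, as for 3.69% of all genes, at a limma adjusted p of 0.999.

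In the endothelin system, the ligand gene Edn3 was at 0.971, 0.819 and 1.06 FPKM in PDN 1, 2 and 3, against 1.22, 1.25 and 1.95 FPKM in controls 1, 2 and 3, a low level at which the groups did not overlap (log2 fold change -0.33 ± 0.14 (SE), limma adjusted p = 0.999). Edn1 ranged from 0.259 to 0.796 FPKM in PDN and from 0.513 to 0.655 FPKM in controls and was not tested. The endothelin A receptor gene Ednra averaged 3.01 ± 0.299 FPKM in PDN and 2.78 ± 1.10 FPKM in controls, below Ednrb in both groups, and the converting enzyme gene Ece1 averaged 21.0 ± 0.477 FPKM in PDN and 21.9 ± 2.33 FPKM in controls (SD, n = 3 each).

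**Figure D5:**
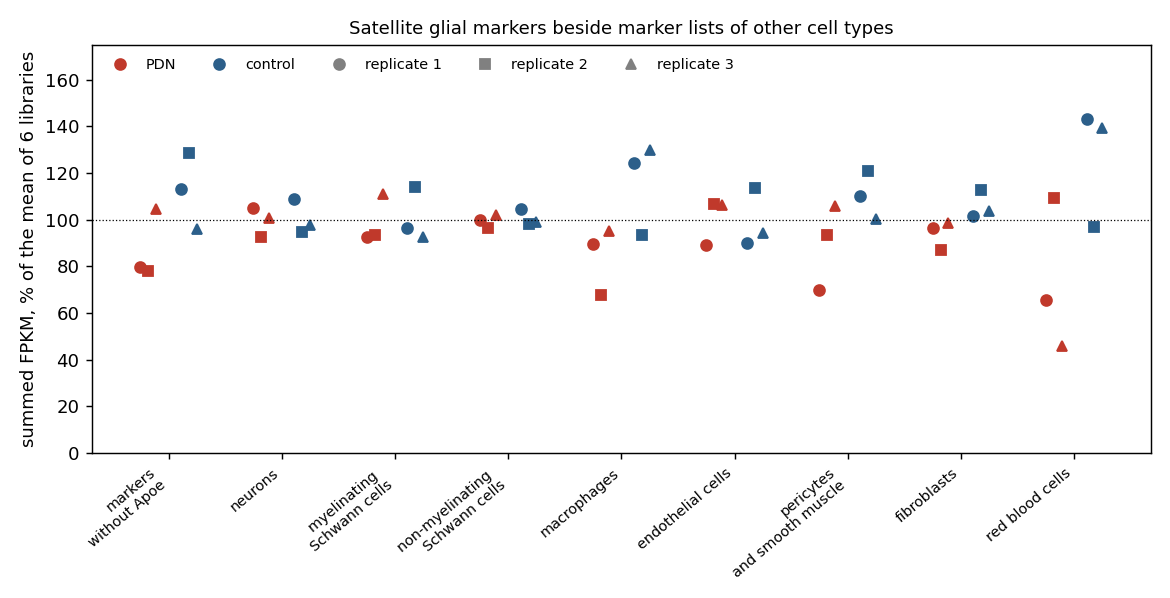
Summed FPKM of the 6 markers other than Apoe and of marker lists of other cell types in each library, as a percentage of the mean over 6 libraries (vertical axis, linear from 0), PDN left in red and control right in blue, with replicates by shape. PDN 1 and PDN 2 are at 79.9% and 77.9% for the satellite glial markers, control 2 is at 129%, and the neuron sums stay between 92.7% and 109%.

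Other cell types were set beside the markers, library by library. The summed neuron markers varied little, at 8665 to 9830 FPKM in PDN and 8878 to 10178 FPKM in controls, with 6 of 10 estimates lower in PDN and a median of -0.01. Myelinating Schwann cell genes had 3 of 8 estimates lower and a median of 0.05, and non-myelinating Schwann cell genes 2 of 4 and a median of -0.03, with sums of 513 to 543 FPKM in PDN and 522 to 556 FPKM in controls. Genes of macrophages, cells known to make Apoe, had 7 of 8 estimates lower and a median of -0.27, with sums of 26.7 to 37.3 FPKM in PDN and 36.7 to 51.1 FPKM in controls. Fibroblast genes had 6 of 6 estimates lower, with sums of 318 to 360 FPKM in PDN and 370 to 411 FPKM in controls. Pericyte and smooth muscle genes also had 6 of 6 estimates lower, with sums of 47.3 to 71.8 FPKM in PDN and 68.0 to 82.0 FPKM in controls, and endothelial genes had 5 of 6. Red blood cell genes summed to 74.5 to 177.6 FPKM in PDN and 157 to 233 FPKM in controls. At an unadjusted limma p under 0.05, 4 of 8 macrophage genes were lower in PDN, beside 3 of 7 markers and 2.89% of all genes. Fibroblast, endothelial, and pericyte and smooth muscle genes had 2 of 6 lower each, and red blood cell genes 2 of 3. Myelinating Schwann cell genes had 1 of 8, and neuron and non-myelinating Schwann cell genes had 0. Cldn5, an endothelial gene, was higher. PDN lay below control without overlap for 4 of 8 macrophage genes and 6.24% of all genes. The cell type lists were chosen with earlier results of these data known, so these counts describe the lists and do not test them. The part of these cell types in the marker differences was not tested.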

How the data were processed

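RNA of 3 PDN and 3 control rats was sequenced. Per the labels' protocols, RNA was taken with Trizol and made into strand-specific libraries. FPKM values are as the authors deposited them, scaled to transcript length and library size. No label or header names an aligner, quantifier, annotation or build. A second table deposited by the authors, named for read counts, was treated as a score, because 54.5% to 54.9% of its values over 1000 equal FPKM times genomic span times 1 constant per library (relative tolerance 0.001), and it served as an alternative. The constants, read as library sizes, give the fragment numbers reported, and fragments per gene were not recovered, so no counting interval is given. Since nothing says how animals were handled, p-values measure the spread between these samples.

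The 13282 genes that reached 1 FPKM in 3 or more libraries were put on the log2(FPKM + 1) scale and fitted with group as the only term and an intensity trend, using limma 3.58.1 (R 4.3.3). This scale understates changes of genes with low values. Two-sided p-values were adjusted by Benjamini-Hochberg over the 13282 genes, with 0.05 as the threshold. Tables and figures were made with Python 3.11.15, pandas 2.3.3 and matplotlib 3.10.9. On simulated data for this comparison with 13282 genes, limma recovered 82 of 100 genes changed by 1 and 97 of 100 changed by 2 on the log2 scale, with 7 calls among unchanged genes. Changes smaller than 1 were not simulated, and the lowest member estimate was -0.49, so these rates do not cover the members. Noise was drawn separately for each gene, without the variation that genes share over the libraries. The members, the related genes and the cell type lists were chosen with earlier results of these data known. Named are all members, a written list of related genes, any related gene with an unadjusted p under 0.05 (except 1 that is not reported here), and the 5 genes closest to the mean marker profile. Other named genes, such as Col3a1 and Lum, were chosen after their values were seen.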

Additional observations from a re-analysis of the deposited data

How the results depend on the processing

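Over the 14 alternatives run, the 6 members other than Apoe kept a lower estimate in PDN in 84 of 84 values, and 0 of these passed an adjusted p of 0.05 in limma. Their lowest adjusted p was 0.551, for Ptprz1 without PDN 3. The median log2 fold change of the 7 members ran from -0.44 to -0.22. With 1 library omitted at a time, that of Apoe lay between -0.0361 and 0.0704, and turned negative without PDN 3 (-0.0301), control 1 (-0.0032) and control 3 (-0.0361), the cause of which was not tested. The count of called genes, 0 as reported, was 0 to 6 when each library was left out (4 without PDN 1, 6 without PDN 3, 3 without control 1, 2 without control 3). It was 9 without both muscle-rich libraries, 1 without the filter (AABR07012079.1) and 2 in the second table (Sapcd1 and Vps33a), and no member was among them. Titles number the replicates 1 to 3 in both groups. Deviations of same-numbered libraries from their group means correlated at 0.171, -0.12 and -0.0865 across genes, so the numbers were not taken as pairs. With a replicate block the count of called genes was 0, and Gfap had an unadjusted p of 0.0531 in place of 0.0298. Fragments per gene are unknown, so what depth limits at low FPKM was not measured.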

Other observations

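In the second deposited table, the values of Kcnj10, Gja1, Fabp7, Ptprz1 and Ednrb equalled FPKM times genomic span times the library's constant to within 0.001, whereas those of Apoe were 75.1% to 76.0% of that product. Gfap stood at 57.7%, 71.8% and 69.1% of the product in PDN 1, 2 and 3, against 72.5%, 70.1% and 64.8% in controls 1, 2 and 3. Its log2 fold change was -0.62 in that table, after median-of-ratios scaling, and -0.48 in FPKM as deposited. These 2 estimates differ in several ways. The 1 added before the log weighs only on the small FPKM values, the scaling differs, and so do the shares of the product between libraries. With 0.1 added instead, the FPKM estimate was -0.56. With 1 added and median-of-ratios scaling, it was -0.46. The part of each in the gap was not tested. The Gfap groups overlapped in the scaled second table.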
